A study of Mus musculus with 4 samples.

Results

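The colony-stimulating factors and their receptors were followed as 10 genes, found by gene name among the 35869 genes listed for each library of adipose tissue CD45+ cells. They were the ligand genes Csf1, Il34, Csf2, Flt3l and Kitl and the receptor genes Csf1r, Csf2ra, Csf2rb, Csf2rb2 and Csf3r. The cells came from the epididymal fat (eWAT) of male wild-type C57BL/6 mice fed a normal diet (ND) or a high-fat diet (HFD) for 12 weeks from 8 weeks of age, with 2 libraries per diet, and no other treatment or genotype distinguished the groups. CD45 microbeads were used to take immune cells out of the stromal vascular fraction, the cells left when fat is digested and the adipocytes are removed. The number of mice behind a library is not given in the sources used here, so the spread between these samples may be technical. The p-values measure only that spread, for which the test draws on other genes as well as on the gene itself.

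These genes encode growth factors of the myeloid lineage and the receptors that read them. CSF1 (M-CSF) and IL-34 share the receptor tyrosine kinase CSF1R, on which tissue macrophages depend for survival. GM-CSF, the product of Csf2, binds a receptor made of the alpha chain CSF2RA and the common beta chain CSF2RB, which IL-3 and IL-5 receptors also use and which signals through JAK2 and STAT5. Mice carry an additional beta chain gene, Csf2rb2, whose product serves IL-3 alone. CSF3R is the G-CSF receptor of neutrophils, FLT3L supports dendritic cells through FLT3, and KITL (stem cell factor) supports mast cells and progenitors through KIT.

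The values were TPM, which divide the reads of a gene by its length and scale each library to the same total, so that levels of different genes can be set side by side. Immune cells were present by Ptprc, the gene of CD45, at 54.5 and 59.4 TPM under ND and 55.3 and 53.7 TPM under HFD, and by the macrophage genes C1qa and Cd68. Transcripts of other cells were present as well. The sum of 6 fibroblast markers was 522 and 561 TPM under ND, 2837 TPM in the first HFD library (HFD replicate 1) and 5686 TPM in the other (HFD replicate 2), and the sum of 5 spermatid markers was 6460 TPM for HFD replicate 1 against 1734 to 1995 TPM in the other libraries. Depth is not stated with TPM, but values of short microRNA genes fell on multiples of a smallest step, by which 1 read on a gene of 1 kb was worth between 0.0606 and 0.0711 TPM. With exon lengths of GENCODE vM21, Csf1r rested on approximately 16794 to 29766 reads per library and Il34 on 25.1 to 38.6. The annotation behind the TPM is not given and may hold other lengths, so all read numbers here are approximate.

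Between the diets the family did not move as a block. Csf2 fell most, Flt3l and Csf3r fell, Csf2rb2 rose, and the main receptor Csf1r was lower by slightly less than the fold change limit. A gene was taken as a differentially expressed gene (DEG) when limma gave it an adjusted p-value under 0.05 and it had a change of at least 1.5-fold on the log2(TPM + 1) scale, which makes the changes of low genes smaller than the ratios of their TPM. By this rule 4 of the 10 genes were DEGs, 1 higher and 3 lower in HFD, where 18.4% of the 16849 genes tested were DEGs, 8.08% higher and 10.3% lower. By adjusted p-value alone 5 of the 10 passed, beside 27.3% of all genes tested. For each of the 10 genes both HFD values lay on the same side of both ND values, and this held for 66.9% of all genes tested. Both HFD values were above for 5 of the 10 (34.1% of all genes tested) and below for 5 (32.8% of all genes tested). The median log2 fold change was -0.0027 over the 10 genes and 0.056 over all genes tested, and the median of the absolute changes was 0.59 and 0.32. Each of the 10 genes passed the filter of at least 1 TPM in at least 2 samples, Il34 only through its HFD values. When ND replicate 1 or ND replicate 2 was left out, limma called 0 genes of the 16849, so that 0 of the 10 genes were called (3862 and 4024 genes, and 5 of the 10 each time, had an unadjusted p-value under 0.05).

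**Figure D1:**
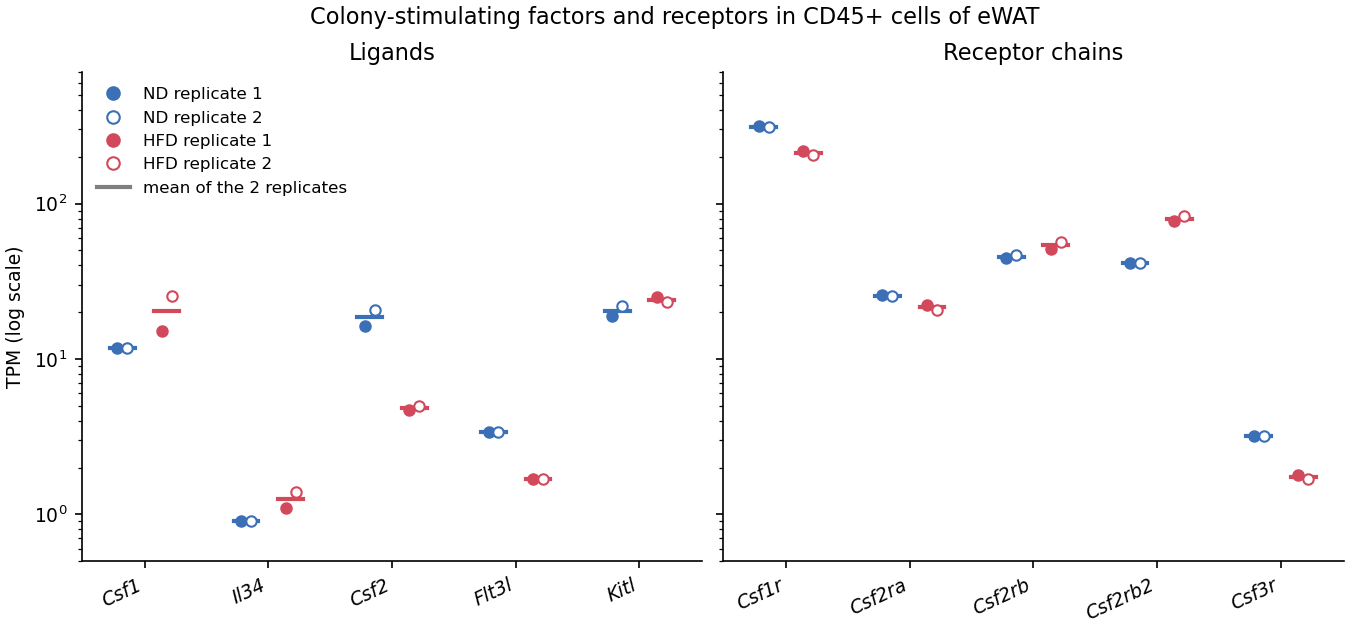
TPM of the ligand genes (left) and receptor genes (right) on a log axis, with a point for each library and a line at the mean of the 2 libraries of a diet. Csf1r is the highest gene in each library, Csf2 is between 16.3 and 20.7 TPM under ND and at 4.7 and 5.0 TPM under HFD, and the HFD libraries lie apart for Csf1.

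**Figure D2:**
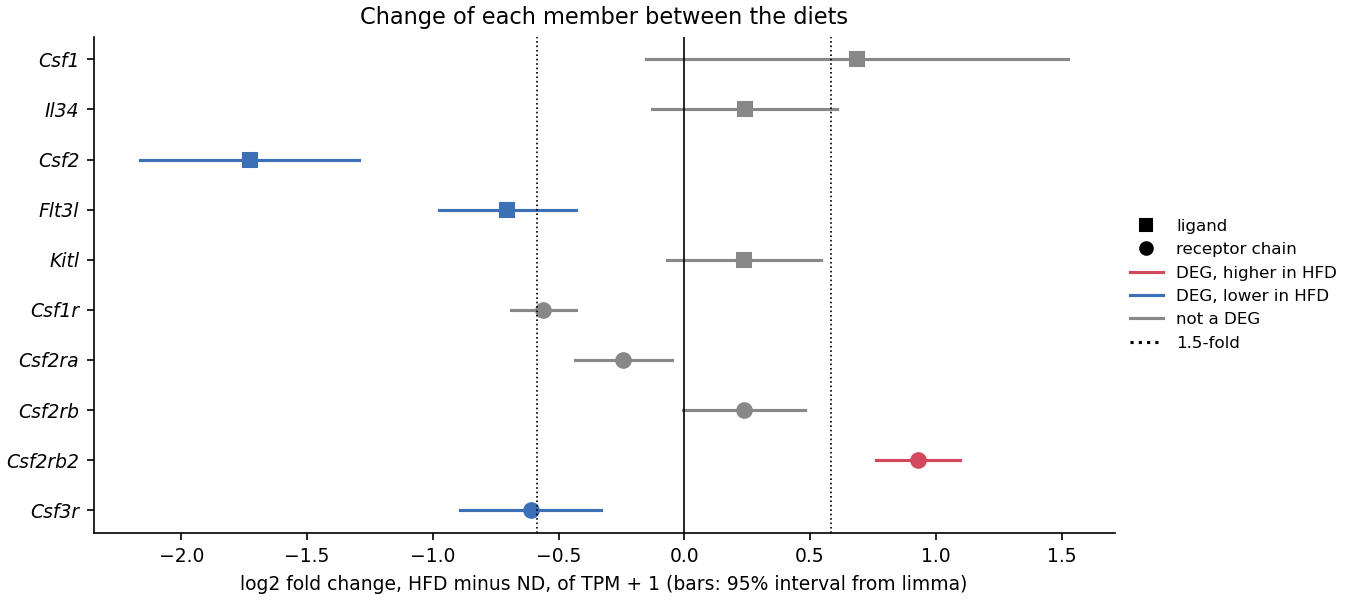
Log2 fold change of each gene between HFD and ND with its 95% interval from limma, with dotted lines at 1.5-fold. Csf2rb2 lies to the right and Csf2, Flt3l and Csf3r to the left as DEGs, and the interval of Csf1 is the widest.

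In ND the levels ran in the order Csf1r, Csf2rb, Csf2rb2, Csf2ra, Kitl, Csf2, Csf1, Flt3l, Csf3r and Il34. Kitl (18.8 and 21.8 TPM) and Csf2 (16.3 and 20.7 TPM) overlapped in ND, and their order was not larger than the spread between replicates. In HFD the order was Csf1r, Csf2rb2, Csf2rb, Kitl, Csf2ra, Csf1, Csf2, Csf3r, Flt3l and Il34. Csf1 overlapped both Kitl and Csf2ra in HFD, and Csf3r overlapped Flt3l.

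Csf2 had the largest change among the 10 genes. GENCODE vM21 places Csf2 (ENSMUSG00000018916.5) at positions 54247271 to 54249667 of mm10 chromosome 11, minus strand, in 4 exon blocks of 800 bases together. Csf2 had 16.3 and 20.7 TPM in the ND libraries and 4.7 and 5.0 TPM in the HFD libraries, from approximately 186 and 273 reads in ND and 60.7 and 56.3 in HFD. Both HFD values were far below both ND values, and the mean was 18.5 ± 3.11 TPM under ND and 4.85 ± 0.212 TPM under HFD (± SD, n = 2). The log2 fold change was -1.73 (95% interval -2.16 to -1.29, adjusted p = 0.0105 in limma). Without HFD replicate 1 the log2 fold change was -1.69 with an adjusted p of 0.0601 in limma, and Csf2 was no longer a DEG. The antisense gene Gm12223, which overlaps Csf2 on the other strand, was at 0.1 TPM or 0 in each library.

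Markers of many immune cells were also lower in HFD where Csf2 was lower, and those of lymphocytes, which can make GM-CSF, are given here. The summed level of 6 markers of group 2 innate lymphoid cells (ILC2) was 249 and 255 TPM under ND and 86.5 and 93.2 TPM under HFD, mostly from Areg (200.4 and 204.4 TPM under ND, 72.9 and 80.7 TPM under HFD). Of these 6 genes 5 were DEGs lower in HFD, among them Gata3, Il13 and Il5, whose HFD means were 0.128, 0.183 and 0.123 of the ND means. Gata3, at 0.8 and 0.9 TPM in HFD, passed the filter only through its ND values. Il5 had 1.0 and 0.9 TPM in HFD, at or below the limit of the filter. The sum of 5 T cell markers was 154 and 170 TPM under ND and 22.5 and 37.3 TPM under HFD, that of 4 NK cell markers was 180 and 185 TPM under ND and 37.4 and 29.5 TPM under HFD, and each gene of both lists was a DEG lower in HFD. The sums of the B cell, mast cell, dendritic cell, monocyte, neutrophil and resident macrophage markers were lower in both HFD libraries as well. The part of any of them in the fall of Csf2 was not tested. In bulk RNA, fewer cells of a type and less RNA per cell cannot be told apart.

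The receptor chains of GM-CSF did not pass the test. Csf2ra (ENSMUSG00000059326.7, positions 61223957 to 61228429 of mm10 chromosome 19, minus strand), the alpha chain that binds only GM-CSF, had 25.9 and 25.3 TPM under ND and 22.2 and 20.8 TPM under HFD. Its log2 fold change was -0.24 (95% interval -0.43 to -0.050, adjusted p = 0.0766 in limma), with both HFD values below both ND values. After rescaling without the 50 most abundant genes Csf2ra passed the adjusted p-value (-0.30, adjusted p = 0.0466 in limma) and not 1.5-fold. Csf2rb, the common beta chain, had 44.5 and 46.4 TPM under ND and 50.7 and 57.0 TPM under HFD, a log2 fold change of 0.24 (95% interval -0.0034 to 0.48, adjusted p = 0.121 in limma). Csf2 therefore stood at 0.629 and 0.818 of the level of Csf2ra in ND and at 0.212 and 0.240 in HFD.

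Csf2rb2, the beta chain of IL-3, had 41.5 and 41.6 TPM under ND and 77.4 and 82.7 TPM under HFD. The HFD values were nearly alike and both far above the ND values, with means of 41.6 ± 0.0707 TPM under ND and 80.1 ± 3.75 TPM under HFD (± SD, n = 2). The log2 fold change was 0.93 (95% interval 0.76 to 1.10, adjusted p = 0.00682 in limma), the smallest adjusted p-value among the 10 genes. Csf2rb2 was the lower of the beta chain genes in ND, at 0.933 and 0.897 of the level of Csf2rb, and the higher in HFD, at 1.53 and 1.45 of it. On the log2(TPM + 1) scale this ratio differed by 0.69 between HFD and ND (standard error 0.045), in the same direction in both HFD libraries against both ND libraries. An exact two-sided permutation test of 2 libraries against 2 cannot give a p under 0.333. Il3, the gene of IL-3, was at 0.2 TPM or below in each library, while its alpha chain gene Il3ra had 11.2 and 10.8 TPM under ND and 11.9 and 11.4 TPM under HFD (a log2 fold change of 0.076 with an adjusted p of 0.493 in limma).

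Csf2rb and Csf2rb2 are neighbors that were duplicated and lie on opposite strands of chromosome 15 of mm10, Csf2rb2 (ENSMUSG00000071714.7) from 78282507 to 78305721 on the minus strand and Csf2rb (ENSMUSG00000071713.6) from 78325752 to 78353847 on the plus strand. Since reads are assigned between near-identical copies by the bases in which they differ, stretches of both coding sequences from the GENCODE vM21 transcripts are shown. The coding sequences, of 2634 bases in Csf2rb2 and 2688 bases in Csf2rb, were identical in 95.2% of the 2628 bases that aligned. The first 150 coding bases, 5′ to 3′, held 6 differences, written in capitals.

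Csf2rb2: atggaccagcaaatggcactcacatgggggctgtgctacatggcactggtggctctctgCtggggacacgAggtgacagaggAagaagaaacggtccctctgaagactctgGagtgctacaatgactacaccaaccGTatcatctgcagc
Csf2rb: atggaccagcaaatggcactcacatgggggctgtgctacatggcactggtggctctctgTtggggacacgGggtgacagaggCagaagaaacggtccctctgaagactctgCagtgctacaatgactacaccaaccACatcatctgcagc

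The ungapped stretch of 150 coding bases with the most differences, 25 in number, began at coding base 303 of Csf2rb2 and 300 of Csf2rb.

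Csf2rb2: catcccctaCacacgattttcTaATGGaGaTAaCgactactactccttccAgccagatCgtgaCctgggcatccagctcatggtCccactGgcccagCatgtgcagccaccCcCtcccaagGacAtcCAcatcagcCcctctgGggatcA
Csf2rb: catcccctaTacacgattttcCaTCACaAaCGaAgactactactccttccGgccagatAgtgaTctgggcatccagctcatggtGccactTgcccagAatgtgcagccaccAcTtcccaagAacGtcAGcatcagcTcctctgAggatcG

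The longest identical run was 242 bases. Of all windows of 75 bases along the Csf2rb2 transcript, 11.1% were also found in a Csf2rb transcript, and 7.20% of windows of 100 bases were. The read length and the handling of reads that fit both genes are not given in the sources used here, so the split of reads between the genes is uncertain in these windows.

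A microRNA hairpin of the same 62 bases lies in a coding exon of each of these genes, Mir7676-1 in Csf2rb2 and Mir7676-2 in Csf2rb. The RefSeq sequence for GRCm38.p6 is given since the hairpins were listed separately from the genes that hold them, and the capitals mark the seeds (bases 2 to 8) of its mature miRNAs.

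mmu-miR-7676-5p: aGGGCAGUaugauggccucugau
mmu-miR-7676-3p: uCCGGUGCucacucugcccaca

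Mir7676-1 had 336 and 379 TPM under ND and 585 and 679 TPM under HFD and was a DEG (a log2 fold change of 0.82 with an adjusted p of 0.0222 in limma). Mir7676-2 had 599 and 704 TPM under ND and 791 and 907 TPM under HFD and did not pass the test (0.38, adjusted p = 0.105 in limma). The libraries were made from mRNA and the hairpins lie in coding exons, so these values are not a measure of the mature miRNAs. Reads of the hairpin and of the host mRNA cannot be told apart, and the call of Mir7676-1 is not separate from that of Csf2rb2. Since both hairpins have the same sequence, the split of reads between the genes is uncertain.

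Csf1r, the receptor for CSF1 and IL-34, was the most abundant of the 10 genes in each library. Csf1r (ENSMUSG00000024621.16) had 313.9 and 312.4 TPM in the ND libraries and 217.4 and 206.8 TPM in the HFD libraries. Each diet was tight and the diets lay well apart, with means of 313 ± 1.06 TPM under ND and 212 ± 7.50 TPM under HFD (± SD, n = 2), a ratio of 0.677. The log2 fold change was -0.56 (95% interval -0.69 to -0.43, adjusted p = 0.00929 in limma), past the p-value limit and short of 1.5-fold, so Csf1r was not a DEG. It became a DEG after quantile normalization (-0.71), after rescaling without the 50 most abundant genes (-0.62) and without HFD replicate 1 (-0.60, adjusted p = 0.0322 in limma). The gene Hmgxb3, which overlaps Csf1r on the other strand, was at 9.7 to 10.9 TPM.

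Other macrophage genes were divided in direction. Of the 8 macrophage markers, the complement gene C1qa was a DEG lower in HFD (log2 fold change -0.62), and its partners C1qc (-0.46, adjusted p = 0.00966 in limma) and C1qb (-0.30, adjusted p = 0.0243 in limma) passed the adjusted p-value and not 1.5-fold, as Csf1r did. Adgre1 (the gene of F4/80) and Cd68 were DEGs higher in HFD, with log2 fold changes of 0.78 and 0.86. Mertk (-0.29), Fcgr1 (0.097) and Cd14 (-0.00020) did not pass the test. The change of Csf1r, -0.56, lay between those of C1qa and C1qc. The 6 markers of resident macrophages, among them Timd4 and Lyve1, were each DEGs lower in HFD and summed to 3759 and 3835 TPM under ND and 1295 and 1079 TPM under HFD. The 6 markers of lipid-associated macrophages, among them Trem2 and Gpnmb, were each DEGs higher in HFD and summed to 1025 and 1073 TPM under ND and 7793 and 8165 TPM under HFD. The 6 monocyte markers summed to 210 and 225 TPM under ND and 80.6 and 106 TPM under HFD, with 3 of them DEGs lower in HFD. The part of such a mix of macrophages in the level of Csf1r was not tested.

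By the distance between centred log2(TPM + 1) profiles over the 4 libraries, the 5 genes most like Csf1r among 10722 genes averaging 5 TPM or more were Cd40, Scamp2, Nfatc1, Plekhg3 and LOC108167320, at distances of 0.021 to 0.026. Cd40 had 8.9 TPM in both ND libraries and 6.0 and 5.6 TPM under HFD, and Nfatc1 had 15.8 and 16.0 TPM under ND and 10.6 and 10.2 TPM under HFD. With 4 libraries 122 genes lay within a distance of 0.1, so that the list is a description of these libraries.

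The ligands of CSF1R did not pass the test in either direction. Csf1 (ENSMUSG00000014599.10) lies on mm10 chromosome 3 at 107741048 to 107760469, minus strand, and Il34 (ENSMUSG00000031750.15) on chromosome 8 at 110741829 to 110805924, minus strand. Csf1 had 11.8 TPM in both ND libraries, 15.1 TPM for HFD replicate 1 and 25.4 TPM for HFD replicate 2. Both HFD values were above ND, but the HFD replicates differed from each other 1.68-fold, and the log2 fold change of 0.69 had a 95% interval from -0.15 to 1.53 (adjusted p = 0.168 in limma). Without HFD replicate 1 it was 1.04 and a DEG (adjusted p = 0.0321 in limma), and without HFD replicate 2 it was 0.33, past the adjusted p-value (0.0475 in limma) and short of 1.5-fold. The fibroblast markers, genes of a stromal cell that also makes CSF1, differed 2.0-fold between the same replicates in the same direction, with 4 of the 6 genes DEGs higher in HFD, and their part in the level of Csf1 was not tested. Il34 was near the lower limit of the data, at 0.9 TPM in both ND libraries and 1.1 and 1.4 TPM under HFD (log2 fold change 0.24, 95% interval -0.13 to 0.61, adjusted p = 0.244 in limma). Csf1 exceeded Il34 in each library.

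Csf1 was also set against its receptor. Csf1r was at 26.6 and 26.5 times the level of Csf1 in ND, and at 14.4 and 8.14 times in HFD. On the log2(TPM + 1) scale the ratio of Csf1 to Csf1r differed by 1.25 between the diets (standard error 0.39). Il34 was at 0.00287 and 0.00288 of the level of Csf1r in ND and at 0.00506 and 0.00677 in HFD, values that rest on few reads of Il34 and are given as a description. These ratios join the values already given and were not tested further.

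**Figure D3:**
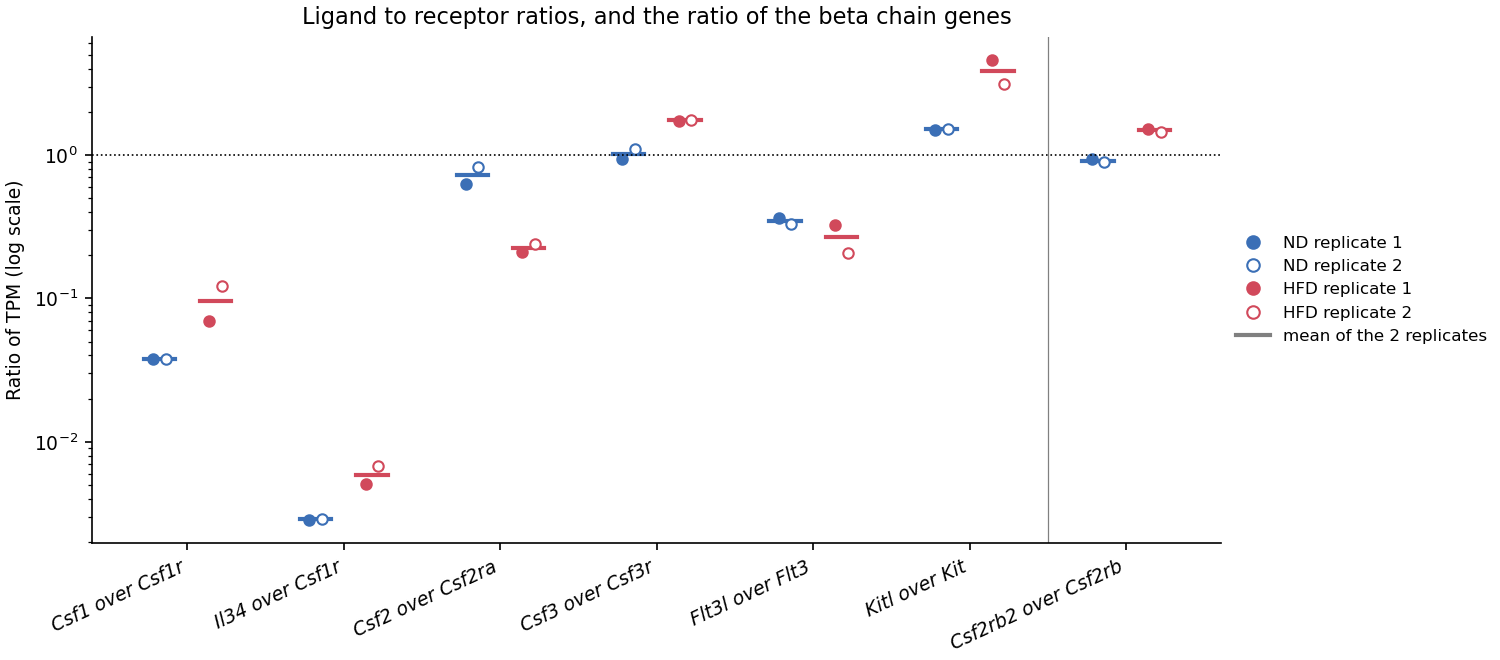
Ratio of TPM of each ligand to its receptor chain, and of Csf2rb2 to Csf2rb at the right, on a log axis with a dotted line at equal levels. The ratios of Csf1 and Il34 to Csf1r, of Csf3 to Csf3r and of Kitl to Kit are higher in both HFD libraries, that of Csf2 to Csf2ra is lower, that of Flt3l to Flt3 is 0.362 and 0.330 in ND and 0.327 and 0.207 in HFD, and that of Csf2rb2 to Csf2rb crosses the line.

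Csf3r, the G-CSF receptor, was low in ND and fell in HFD. Csf3r (ENSMUSG00000028859.14, positions 126024550 to 126044440 of mm10 chromosome 4, plus strand) had 3.2 TPM in both ND libraries and 1.8 and 1.7 TPM under HFD, from approximately 165 and 191 reads in ND and 105 and 86.3 in HFD. The log2 fold change was -0.61 (95% interval -0.89 to -0.33, adjusted p = 0.0277 in limma), only just past 1.5-fold, and Csf3r was no longer a DEG after quantile normalization (adjusted p = 0.0742 in limma) or with a pseudocount of 5 (log2 fold change -0.28). Its ligand Csf3 had 3.0 and 3.5 TPM under ND and 3.1 and 3.0 TPM under HFD (a log2 fold change of -0.067 with an adjusted p of 0.689 in limma). Csf3 was at 0.938 and 1.09 times the level of Csf3r in ND and at 1.72 and 1.76 times in HFD, from few reads of either. The 8 neutrophil markers summed to 69.8 and 93.4 TPM under ND and 27.9 and 31.2 TPM under HFD, and 4 of the 5 that could be tested, S100a8, S100a9, Retnlg and Cxcr2, were DEGs lower in HFD. Cxcr2 (1.4 and 1.3 TPM under ND, 0.4 and 0.5 TPM under HFD) passed the filter only through its ND values. The defining marker Ly6g was at 0.1 TPM or 0 in each library, and the part of neutrophils in the fall of Csf3r was not tested.

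The promoter of Csf2rb2, the gene that rose, is shown with the core of the motif of PU.1, the factor of myeloid genes encoded by Spi1. It is the 250 bases before the RefSeq start on GRCm38.p6, chr15:78305722-78305971 on the minus strand, with GAGGAA, searched on both strands, in capitals.

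Csf2rb2: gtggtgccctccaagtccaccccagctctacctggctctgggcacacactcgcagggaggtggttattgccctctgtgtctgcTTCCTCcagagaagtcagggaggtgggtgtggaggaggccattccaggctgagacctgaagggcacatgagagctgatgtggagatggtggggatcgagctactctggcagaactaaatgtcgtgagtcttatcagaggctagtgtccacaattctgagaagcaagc

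The window held GAGGAA at 1 place, and 23.3% of 32851 promoter windows of this length held it at 1 or more. Of the 7 genes with a promoter in the table, Csf3r also held it at 1 place, in a window of which 109 bases lie inside the GENCODE vM21 gene, Csf2ra, which was not a DEG, held it at 2 places, and Csf1, Csf2, Flt3l and Kitl held none. TTGCNNAA, searched in the same way for C/EBP, was found in Csf2 alone (9.56% of all windows), and TTCNNNGAA, for STAT5, was found in Csf2rb2 alone (7.02% of all windows). The windows of Csf2ra and Kitl overlap their GENCODE vM21 genes too, by 11 and 191 bases. A match is a description of the letters. Spi1 had 169.3 TPM in both ND libraries and 210.6 and 207.1 TPM under HFD, a log2 fold change of 0.30 that passed the adjusted p-value (0.0180 in limma) and not 1.5-fold.

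Flt3l (ENSMUSG00000110206.1, positions 45129788 to 45136432 of mm10 chromosome 7, minus strand), whose product sustains dendritic cells, had 3.4 TPM in both ND libraries and 1.7 TPM in both HFD libraries, from approximately 188 and 218 reads in ND and 107 and 92.7 in HFD. The replicates were equal at the 1 decimal to which TPM are printed, and the diets did not overlap. With no spread of its own, Flt3l has an interval and a p-value in limma that rest on the spread of other genes. The log2 fold change was -0.70 (95% interval -0.98 to -0.43, adjusted p = 0.0207 in limma), and Flt3l was no longer a DEG after quantile normalization (adjusted p = 0.0622 in limma) or with a pseudocount of 5 (log2 fold change -0.33). In GENCODE vM21 the gene Gm45713 overlaps Flt3l on the same strand, but it is not among the genes listed for these libraries. How reads of the overlap were counted is not given in the sources used here. Its receptor gene Flt3 had 9.4 and 10.3 TPM under ND and 5.2 and 8.2 TPM under HFD and did not pass the test (a log2 fold change of -0.52 with an adjusted p of 0.199 in limma). Of the 7 dendritic cell markers, Zbtb46, Cd209a and Batf3 were DEGs lower in HFD, and Flt3, Xcr1, Clec9a and Ccr7 did not pass the test. The sum of the list, 684 and 708 TPM under ND and 178 and 188 TPM under HFD, came mostly from Cd209a (367 and 393 TPM under ND, 65 and 58 TPM under HFD) and Batf3 (248 and 244 TPM under ND, 82.3 and 71.8 TPM under HFD).

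Kitl (ENSMUSG00000019966.18, positions 100015630 to 100100416 of mm10 chromosome 10, plus strand) had 18.8 and 21.8 TPM under ND and 24.9 and 23.2 TPM under HFD. Its log2 fold change of 0.24 (95% interval -0.068 to 0.54, adjusted p = 0.185 in limma) did not pass the test, although the diets did not overlap. Kit, its receptor gene, fell from 12.6 and 14.3 TPM under ND to 5.4 and 7.4 TPM under HFD (a log2 fold change of -0.98 with an adjusted p of 0.0379 in limma). Kitl was thus at 1.49 and 1.52 times the level of Kit in ND and at 4.61 and 3.14 times in HFD. The 5 mast cell markers, Kit included, were each DEGs lower in HFD and summed to 1550 and 1566 TPM under ND and 376 and 479 TPM under HFD, with the mast cell proteases Cma1 and Mcpt4 among them. Endothelial cells and fibroblasts are stromal sources of KITL. The sum of 5 endothelial markers was 154 and 158 TPM under ND and 190 and 194 TPM under HFD, mostly from Cdh5, and 0 of the 5 were DEGs in limma (Cdh5 and Kdr, 2 of the 5, had an unadjusted p-value under 0.05), while Cdh5 alone passed the adjusted p-value (log2 fold change 0.46, adjusted p = 0.0110 in limma). The sum of 6 fibroblast markers, with 4 DEGs higher in HFD, was given above, and the part of either in the level of Kitl was not tested.

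**Figure D4:**
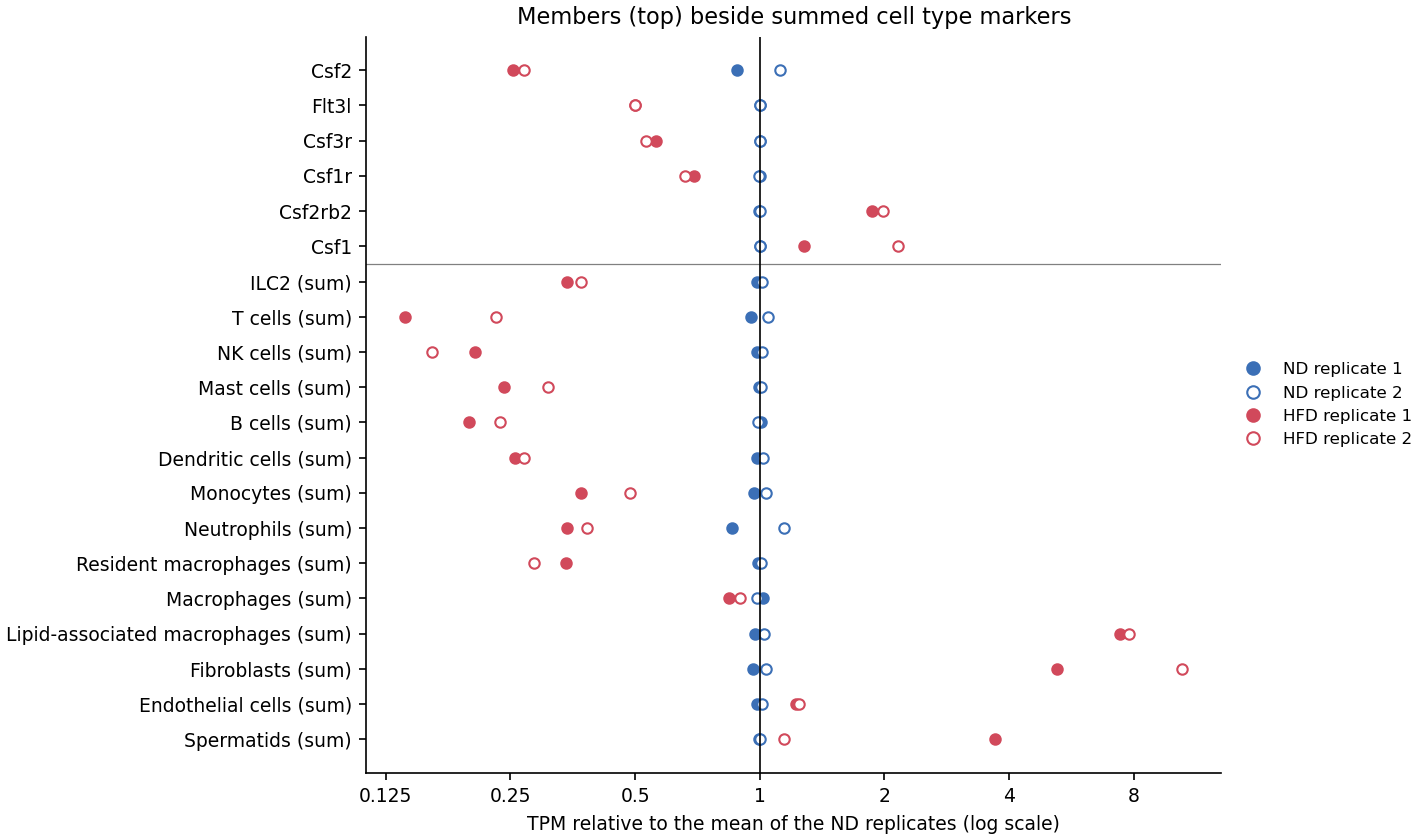
TPM of 6 of the genes (top) and summed TPM of cell type markers (bottom), each relative to the mean of the ND replicates, on a log axis with a point per library. Csf2, at 0.254 and 0.270 of ND in HFD, lies among the lymphoid, mast cell, dendritic cell and resident macrophage lists, and Csf1 and the fibroblast markers are both higher in replicate 2 of the HFD libraries than in replicate 1.

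The wider pathway was described by 31 further genes in lists drawn up for ligands, receptors and signalling, of which 29 could be tested. In these lists 10 genes were DEGs, 3 higher and 7 lower in HFD, where 18.4% of all genes tested were DEGs, 8.08% higher and 10.3% lower. Of 7 related ligands and receptors tested, Kit, Il5 and Il5ra were lower and Sdc1 was higher. Il5, a cytokine of ILC2 that signals through the common beta chain, had 7.6 and 7.9 TPM under ND and 1.0 and 0.9 TPM under HFD (a log2 fold change of -2.17 with an adjusted p of 0.00507 in limma). Il5ra, its alpha chain, had 1.5 and 2.0 TPM under ND and 0.2 TPM in both HFD libraries (-1.19, adjusted p = 0.0181 in limma). It passed the filter only through its ND values. Sdc1, a syndecan that also binds IL-34, had 34.5 and 36.1 TPM under ND and 107.0 and 112.7 TPM under HFD (1.61, adjusted p = 0.00449 in limma), whereas Ptprz1, another receptor of IL-34, was listed at 0 in each library.

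Among 12 genes of signalling below the receptors, Jak2 was the 1 DEG, with 15.8 and 17.4 TPM under ND and 9.5 and 10.6 TPM under HFD (a log2 fold change of -0.67 with an adjusted p of 0.0252 in limma). The adaptor genes Tyrobp and Grb2 were higher, as was Spi1, and Pik3cd and Stat5b were lower by adjusted p-value, each by less than 1.5-fold. Stat5a did not pass the test (a log2 fold change of -0.38 with an adjusted p of 0.0590 in limma), with 8.3 and 8.9 TPM under ND and 6.2 and 6.6 TPM under HFD.

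Of 8 feedback and response genes of STAT5, 3 were DEGs lower in HFD and 1 was higher. Cish, a feedback inhibitor induced by STAT5, had 27.3 and 27.2 TPM under ND and 7.5 and 8.3 TPM under HFD, without overlap and with little spread (a log2 fold change of -1.67 with an adjusted p of 0.00536 in limma). Socs3, a feedback inhibitor of cytokine receptors such as CSF3R, had 615.8 and 613.6 TPM under ND and 332.4 and 354.1 TPM under HFD (-0.84, adjusted p = 0.00626 in limma), and Socs2 was also lower (-0.67, adjusted p = 0.0406 in limma). Socs2 had 2.2 and 2.3 TPM under ND and 0.9 and 1.2 TPM under HFD, so that its HFD values lay near the limit of the filter. Bcl2l1, the gene of the survival protein BCL-XL, was higher at 11 and 11.3 TPM under HFD against 5.5 and 5.6 TPM under ND (0.89, adjusted p = 0.0103 in limma). Pim1 was lower by adjusted p-value (-0.47, adjusted p = 0.00909 in limma) and not by 1.5-fold. Of the proteases that release membrane-bound CSF1, KITL and CSF1R, Adam17 rose from 20.1 and 21.7 TPM under ND to 35.7 and 38.1 TPM under HFD (0.79, adjusted p = 0.0121 in limma), and Adam10 had 69.8 and 76.1 TPM under ND and 85.9 and 84.1 TPM under HFD (0.22, adjusted p = 0.0891 in limma).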

How the data were processed

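RNA was sequenced from CD45+ cells of eWAT, 2 libraries from ND-fed and 2 from HFD-fed mice. The authors prepared stranded mRNA libraries and, by their methods and the processing notes of the submitters, trimmed reads with Trim Galore 0.4.2 and cutadapt 1.9.1, aligned them to mm10 with STAR 2.6.1e, took out duplicates with Sambamba, counted with featureCounts 1.6.2 and deposited the result as TPM, printed to 1 decimal. The annotation and the use of strand in counting are not given in the sources used here.

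Genes with at least 1 TPM in at least 2 samples were compared as log2(TPM + 1) with limma 3.58.1 in R 4.3.3 (eBayes with a variance trend), with p-values adjusted by the Benjamini-Hochberg method over the 16849 genes tested. TPM are not counts, so no count model was used, and they are shares of a library, so that a rise of some genes lowers others. The fit and the read step were run on simulated data as a check of the computation. In the simulated fit both diets had the same spread for a gene, so it does not check the calls in these data. Gene positions were taken from GENCODE vM21, sequences were aligned with Biopython 1.88, and plots were made in Python 3.11.15 with matplotlib 3.10.9. The step in TPM that stands for 1 read came from 225 to 262 microRNA genes per library, with lengths from RefSeq for GRCm38.p6, and promoters of 7 of the 10 genes were found in RefSeq.

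The 10 genes, the pathway and marker lists and the tests were chosen with earlier results of these data known. The named genes were the 10, the DEGs of the pathway lists with the partners of the 10, and the 5 genes nearest to Csf1r, and other pathway and marker genes were named as examples after their values were seen. Alternatives were other pseudocounts, filters, scalings and fold change limits, no variance trend, a replicate block and each sample left out in turn.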

Additional observations from a re-analysis of the deposited data

How the results depend on the processing

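The number of DEGs among the 10 genes was 4. It dropped to 2 (Csf2 and Csf2rb2) under a pseudocount of 5 or a replicate block, to 2 with a mean TPM of at least 5, where Flt3l, Csf3r and Il34 were too low to be tested, and to 1 (Csf2) under a limit of 2-fold. Among all genes tested the number was 3097, against 2015 under a pseudocount of 5, 812 under a replicate block and 1602 under a limit of 2-fold. Among the pathway lists it was 10, against 4 under a replicate block, 4 under a limit of 2-fold and 16 by adjusted p-value alone. With 1 replicate left out, where the lone sample of a diet is assumed to vary like the others, the number lay between 0 and 5 for the 10 genes and between 0 and 4232 for all genes, and for the pathway lists between 0 and 9. The counts of 0 came without ND replicate 1 or 2. The cause of these counts was not tested. Across the 16849 genes tested the ND replicates had a Pearson correlation of 0.994 with each other, and the HFD replicates had 0.966. None of 87 refitted values of the 10 genes under the other settings, nor of 40 with 1 replicate left out, changed direction. Both diets carry replicate numbers 1 and 2 in the labels, but the labels do not say that same-numbered samples are pairs. Their deviations were not correlated across genes (correlation -0.015), which with 2 samples per diet cannot exclude pairing. They were not taken as pairs, and the replicate block was kept as an alternative. The ratio of Csf3 to Csf3r was higher in HFD by 0.54 on the log2(TPM + 1) scale and by 0.75 with a pseudocount of 0.1. Genes near 1 TPM, such as Il34, rest on few reads.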
